A study of Mus musculus with 2 samples.

Results

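Efferocytosis is the engulfment of dying cells by macrophages. A dying cell exposes phosphatidylserine on its surface, and the macrophage binds this lipid either directly, through receptors such as TIM-4, or through soluble bridging proteins that hold the dying cell to a receptor: GAS6 and protein S to the TAM receptor kinases (TYRO3, AXL and MERTK), and MFG-E8 to αv integrins. LRP1 recognises calreticulin and C1q, and the signal to swallow runs through ELMO and DOCK proteins, which activate the GTPase RAC, and through the adaptor GULP1. In obese fat, macrophages gather around dying adipocytes and clear them, so these genes belong to the ordinary work of adipose tissue macrophages (ATM).

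The genes described here were 10 members chosen by name, Mertk, Axl, Gas6, Pros1, Mfge8, Timd4, Lrp1, Elmo1, Dock2 and Gulp1, out of 20330 gene identifiers in the deposited table. All 10 had a row, and all 10 passed the filter of an FPKM (fragments per kilobase of transcript, scaled to the size of the library) of at least 1 in at least 1 library. Gulp1 passed only through the KO library. Gene positions below are those of GENCODE M21 on GRCm38, since the table itself holds none. RNA had been sequenced from ATM sorted with antibodies against F4/80 and CD11b out of visceral fat, after C57BL/6 mice had been on a high-fat diet (HFD) for 12 weeks, as part of work on how macrophages without HIF-1α produce heat. The WT library came from hMRP8cre-;Hif-1αfl/fl;ApoE-/- mice and the KO library from hMRP8cre+;Hif-1αfl/fl;ApoE-/- mice, so both are labelled as ApoE-/- and as carrying floxed Hif-1α alleles. Cre was driven by the promoter of human MRP8 (S100A8), a gene of the myeloid lineage that is strongest in neutrophils, and per the study's methods mice began the diet at 4 weeks of age. The number of animals behind each library is not given in the sources used here.

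There was 1 library per genotype, so no difference below has a replicate check, no p-value was computed, and every difference compares these libraries. Differences are on the log2(FPKM + 1) scale, KO minus WT, which understates the change of low genes. A gene was called higher or lower at 3-fold on that scale. The smallest FPKM step put the depth at about 5.86e+06 and 7.47e+06 fragments for WT and KO. Hif1a, the targeted gene, was at 30.4 FPKM (WT) and 21.0 FPKM (KO) over the whole gene. Apoe, labelled as knocked out in both groups, was listed at 94.3 and 117 FPKM over the whole gene. These values do not show the floxed or disrupted part alone and so do not check the labels. The macrophage markers were present: of 10 chosen markers 9 had a row, none was at 0, and they summed to 6397 FPKM in the WT library against 6541 in the KO library. Lyz2 alone made up 3936 and 4079.65 FPKM of these sums, and Fcgr1 was the only one past 2-fold, at 49.3 and 21.9 FPKM. The column named for the mutant was read as the KO library, the only one of the pair with a Cre-positive genotype.

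Of the 10 members, 1 was called higher in KO (Gulp1) and 1 was called lower (Mfge8). Among all 10297 genes compared, 27.3% were called, 13.6% higher and 13.7% lower, and 20% of the members were. The median difference was -0.39 over the members, against 0.03 over all genes compared. At 2-fold, Gulp1 and Mertk were higher and Mfge8, Pros1 and Timd4 were lower, which is 5 of 10 members, against 45.6% of all genes compared (23.1% higher and 22.5% lower). On the plain FPKM ratio, a rule added after the values were seen, Pros1 joined the members past 3-fold, against 37.1% of all genes (18.8% higher and 18.3% lower). With an FPKM of at least 1 required of each library, Mfge8 was the only called member of the 9 left, against 11.5% of 7586 genes (5.66% higher and 5.89% lower). In sign, 8 members were lower and 2 were higher in KO, with Gas6 counted as lower although its sign turned under 1 scaling. The summed level of the members was 698 and 567 FPKM in the WT and KO libraries.

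**Figure D1:**
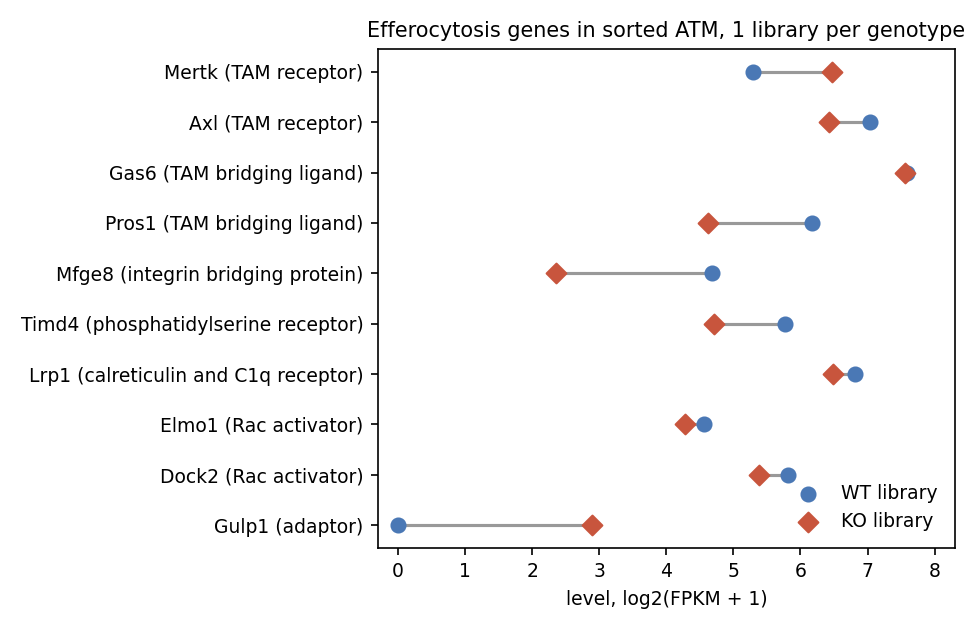
Level of each of the 10 members on the log2(FPKM + 1) scale, with the WT library as a blue circle and the KO library as a red diamond (1 library each, no error bars). Gas6 has nearly the same level in both, Mertk is the only gene listed above 0 in both libraries that is higher in KO, and Gulp1 sits at 0 in WT.

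From 1 to 1000 FPKM the share of genes past a threshold fell with the level, so each member is read beside genes of its own level. In the band with mean values between 2 and 5 FPKM, 49.0% were past 3-fold, against 20.6% at 10 to 20 FPKM, 11.7% at 20 to 50 FPKM, 4.95% at 50 to 100 FPKM and 1.99% at 100 to 1000 FPKM. The shares past 2-fold in the same bands were 63.3%, 38.9%, 26.8%, 15.7% and 7.81%. Gulp1 and Mfge8, the called members, had the lowest mean levels of the 10. Mertk, at 2-fold, lay in the band of 50 to 100 FPKM, where 6.45% of genes were past 2-fold in the same direction. Pros1 and Timd4 lay in the band of 20 to 50 FPKM, where 13.4% were past 2-fold and lower.

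**Figure D2:**
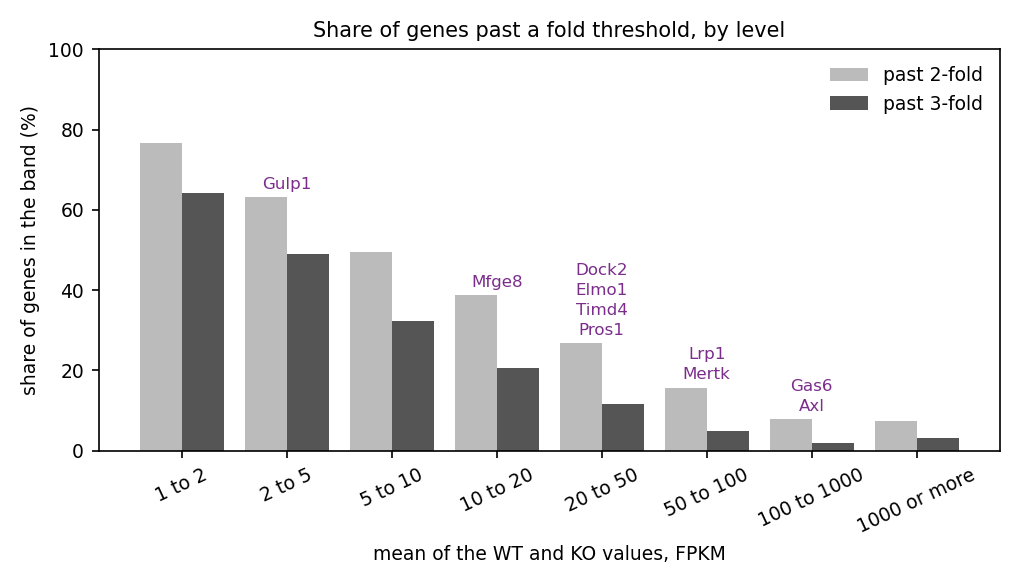
Share of all genes compared that were past 2-fold (grey bars) and past 3-fold (dark bars) in either direction, by the mean FPKM of both libraries; member names stand above the band in which they lie. The shares drop from 64.3% past 3-fold at 1 to 2 FPKM to 1.99% at 100 to 1000 FPKM.

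Mertk and Axl, the TAM receptor kinases of these cells, differed in opposite directions. MERTK is the receptor that tissue macrophages use most for clearing dying cells under steady conditions, while AXL is known for its induction by interferon and inflammatory signals. Mertk (chromosome 2, 128698956 to 128802894) was at 38.01 FPKM (WT) and 88.1 FPKM (KO), a difference of 1.19 or 2.32-fold on the plain ratio. Axl (chromosome 7, 25757273 to 25788705) was at 130.3 FPKM in the WT library against 84.9 in the KO library, a difference of -0.61, which passed neither threshold. Tyro3, the remaining TAM receptor, was listed at 0 in both libraries.

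The sum of both receptors was close in the libraries, at 168 and 173 FPKM in the WT and KO libraries, while its make-up was not. Mertk made up 22.6% of that sum in WT and 50.9% in KO. The level of Mertk relative to Axl was thus 0.292 in WT and 1.04 in KO, a 3.56-fold difference between ratios taken within each library, which scaling between libraries does not alter. Adam17 and Adam10, proteases that shed such receptors from the cell surface, were at 38.04 and 19.3 FPKM in WT and at 34.9 and 23.0 FPKM in KO.

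The TAM ligands also parted. GAS6 binds all TAM receptors, whereas protein S, the product of Pros1 and a plasma anticoagulant, binds MERTK and TYRO3 but not AXL to any great extent. Gas6 (chromosome 8, 13465374 to 13494490) was the highest member in both libraries, at 191 FPKM (WT) and 188 FPKM (KO), above 95.8% and 95.7% of all genes listed above 0. Its difference was -0.02, and 0.02 when the libraries were scaled to the same summed FPKM, so no direction is given. Pros1 (chromosome 16, 62854307 to 62929346) was at 71.4 FPKM in the WT library against 23.6 in the KO library, which took it from the fourth to the seventh place among the members. Its difference of -1.56 lay just inside the 3-fold limit of 1.58, and on the plain FPKM ratio it was 3.03-fold lower. Gas6 therefore stood at 2.67 times Pros1 in WT and at 7.98 times Pros1 in KO. The ligands together summed to 262 and 212 FPKM in the WT and KO libraries.

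Mfge8 (chromosome 7, 79133768 to 79149060) encodes MFG-E8, which bridges phosphatidylserine to the integrins αvβ3 and αvβ5. It was at 24.6 FPKM (WT) and 4.14 FPKM (KO), a difference of -2.32 or 5.96-fold lower in KO, and was the member with the largest difference among those listed above 0 in both libraries. About 298 fragments lay behind the WT value and about 63.8 behind the KO value, figures that bear on counting error only, since copies made by PCR are not independent molecules. The integrin subunits that receive it were lower at 2-fold but not at 3-fold. Itgb5, the β5 subunit, was at 42.9 FPKM in the WT library against 15.5 in the KO library, a difference of -1.41. In its band of 20 to 50 FPKM, 13.4% of genes were past 2-fold and lower. Itgav, the αv subunit, was at 12.0 and 5.18 FPKM in the WT and KO libraries, a difference of -1.08. In its band of 5 to 10 FPKM, 24.8% were. Itgb3, the β3 subunit, and Edil3, a bridging protein of the same family as MFG-E8, were listed at 0 in both libraries.

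**Figure D3:**
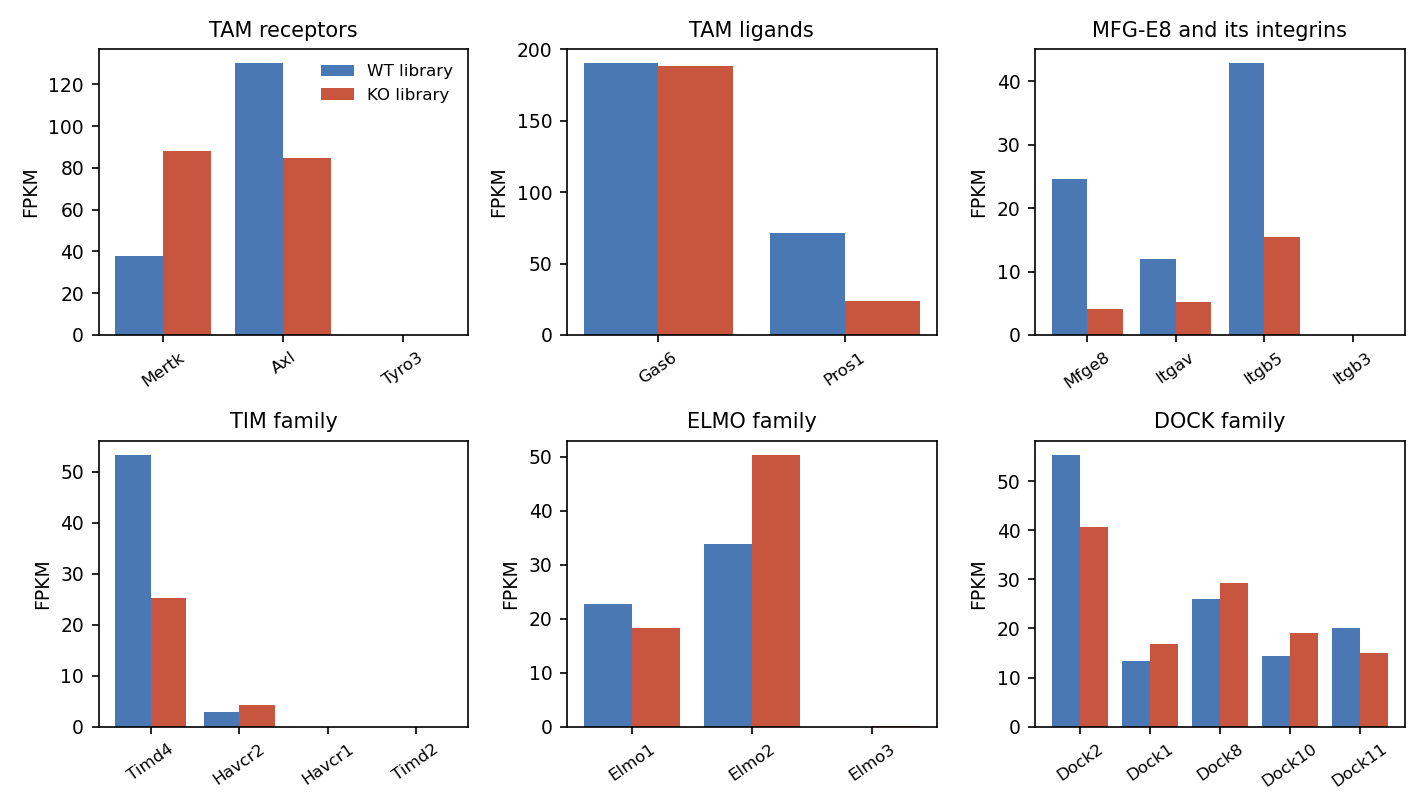
FPKM in the WT library (blue) and the KO library (red) of the members beside their relatives or partners, in bars that start at 0 (1 library each, no error bars; the DOCK panel shows Dock2, Dock1, Dock8, Dock10 and Dock11). Mertk and Axl differ in opposite directions, as do Elmo1 and Elmo2, and the 3 MFG-E8 pathway genes listed above 0 are all lower in KO.

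Timd4 (chromosome 11, 46810800 to 46844332) encodes TIM-4, which holds phosphatidylserine directly and marks long-lived resident macrophages of several tissues. It was at 53.4 FPKM (WT) and 25.1 FPKM (KO), a difference of -1.06 or 2.12-fold lower. Among its relatives, Havcr2, which encodes TIM-3, was at 2.91 FPKM in the WT library against 4.31 in the KO library, and Havcr1 and Timd2 were listed at 0 in both. Of 7 other markers of resident macrophages, all listed above 0 in both libraries, 5 were higher and 2 lower in sign and 0 were past 2-fold. They summed to 4619 and 5308 FPKM in the WT and KO libraries, and ran from Cd209g at 182 and 123 FPKM, a difference of -0.57, to Lyve1 at 239.7 and 453 FPKM, a difference of 0.92. Their part in the Timd4 value was not tested.

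Markers of serous cavity macrophages, which also carry TIM-4 and could enter visceral fat samples, summed to 10.02 FPKM in the WT library against 31.3 in the KO library over 6 genes, of which Alox15 alone made up 6.497 and 25.7 FPKM. Of the 4 compared, 3 were called higher in KO, Alox15, F5 at 0.195 and 3.28 FPKM and Garnl3 at 0 and 2.24 FPKM, and Icam2 was called lower. F5, Garnl3 and Icam2 lay in the band of 1 to 2 FPKM, where 64.3% of genes were past 3-fold. Alox15 lay in that of 10 to 20 FPKM, where 20.6% were. Gata6, their defining factor, was listed at 0 in both libraries, Selp at 0 in WT and Icam2 at 0 in KO. Monocyte markers summed to 44.5 and 27.5 FPKM in the WT and KO libraries over 5 genes, of which 4 were lower and 1 was higher in sign. Ly6c2 and Chil3 were called lower, at 9.39 and 2.10 FPKM in WT and at 0 in KO. Ccr2 was at 29.4 and 9.78 FPKM, past 2-fold only, and Vcan was at 1.97 and 0.766 FPKM. Plac8 was called higher at 1.58 and 17.0 FPKM. Ly6c2, Plac8 and Chil3 lay in the bands of 2 to 5, 5 to 10 and 1 to 2 FPKM. In these 49.0%, 32.4% and 64.3% of genes were past 3-fold. The part of these lists in the Timd4 value was not tested. In such bulk RNA, fewer cells of a type and less RNA per cell cannot be told apart.

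Lrp1 (chromosome 10, 127538161 to 127621148) encodes a large endocytic receptor that takes up calreticulin-marked and C1q-marked cells as well as lipoproteins. It was the third highest member in WT at 112 FPKM and the second in KO at 88.2 FPKM, a difference of -0.34, inside both thresholds. Lrpap1, which encodes the chaperone that LRP1 needs on its way to the surface, was at 15.4 FPKM (WT) and 27.2 FPKM (KO), a difference of 0.78. The ligands of LRP1 were among the most abundant transcripts of the pathway. C1qb was at 4726 and 4663 FPKM in WT and KO, C1qc at 3437 and 2809 FPKM, C1qa at 1849 and 1648 FPKM, and Calr, which encodes calreticulin, at 627 and 584 FPKM. None of these 4 was past 2-fold.

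Elmo1 and Dock2 encode partners of 1 complex that loads RAC with GTP, DOCK2 being a DOCK protein found mainly in blood cells. Elmo1 (chromosome 13, 20090596 to 20608353) was at 22.7 and 18.3 FPKM in the WT and KO libraries, a difference of -0.29. Dock2 (chromosome 11, 34226815 to 34783892) was at 55.4 FPKM (WT) and 40.6 FPKM (KO), a difference of -0.44. Neither passed 2-fold, and Dock2 stood at 2.44 times Elmo1 in WT and at 2.22 times Elmo1 in KO. Each shares annotated exon bases with an antisense transcript, so that reads of the pair could be mixed, and Gas6 shares 34 bases with Tmem255b on the other strand.

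Elmo1 was lower per length than its relative Elmo2 in both libraries. Elmo2 was at 33.9 FPKM in the WT library against 50.4 in the KO library, a difference of 0.56, so that Elmo1 relative to Elmo2 was 0.669 in WT and 0.364 in KO. Elmo3 was at 0 and 0.0437 FPKM in the WT and KO libraries. Dock8 was at 26.0 FPKM (WT) and 29.3 FPKM (KO). Dock1, also a partner of ELMO in engulfment, was at 13.3 FPKM in the WT library against 16.9 in the KO library, so Dock2 stood at 4.16 times Dock1 in WT and at 2.40 times Dock1 in KO. Dock10 was at 14.3 and 19.0 FPKM and Dock11 at 20.1 and 15.0 FPKM in WT and KO. Dock6 was called higher, at 0.172 and 4.15 FPKM in the WT and KO libraries. Dock4 was at 1.69 and 1.48 FPKM, Dock5 at 0 and 0.925 FPKM, and Dock3 and Dock9 were listed at 0 in both.

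Gulp1 (chromosome 1, 44551511 to 44796838) encodes an adaptor whose phosphotyrosine-binding domain attaches to the tail of LRP1 and of other engulfment receptors. The WT library listed it at 0 and the KO library at 6.44 FPKM. An exact 0 in such a table can be a failed estimate, and no fold is given. At the WT depth 3 fragments would correspond to 0.244 FPKM for a transcript of its length, whereas the KO value rested on an estimated 101 fragments. Zeros opposite such a level were not rare: 11.8% of genes with a KO value between 5 and 10 FPKM had 0 in WT, and 10.2% of those with a WT value in that range had 0 in KO. Its place in the order of the members was the last in WT and the ninth in KO, where Mfge8 was lower.

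Adaptors with the same kind of domain were far above it. Dab2, which also binds the tails of endocytic receptors, was at 448 FPKM (WT) and 498 FPKM (KO), 77.2 times Gulp1 in KO. Shc1 was at 26.0 and 29.5 FPKM in WT and KO.

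Several members are also made by cells other than macrophages, among them Gas6, Pros1, Axl, Mfge8 and Lrp1 by stromal cells, so markers of such cells are given beside them. Fibroblast and preadipocyte markers summed to 52.2 FPKM in the WT library against 95.3 in the KO library over 8 genes, with Dcn at 35.03 and 62.3 FPKM, Pdgfra at 0.0246 and 4.98 FPKM, Lum at 0 in WT and Pi16 at 0 in KO. Endothelial markers summed to 11.3 and 9.28 FPKM over 7 genes, with Cldn5 and Emcn at 0 in both libraries and Tek and Tie1 at 0 in KO. Adipocyte markers summed to 7.97 and 8.70 FPKM over 7 genes, with Adipoq, Plin1 and Retn at 0 in both, Lep and Cfd at 0 in WT and Cidec and Plin4 at 0 in KO. Mesothelial markers were at 0 in both but for Upk3b, which was at 0 and 7.84 FPKM in the WT and KO libraries. Neutrophil markers summed to 158 FPKM (WT) and 521 FPKM (KO) over the 9 of 10 with a row. Most of that sum was S100a9, called higher at 63.4 and 301 FPKM, and S100a8, past 2-fold at 73.3 and 182 FPKM, with Camp, Ltf and Mmp8 at 0 in both and Ngp at 0 in WT. S100a9 and S100a8 lay in the band of 100 to 1000 FPKM, where 1.99% of genes were past 3-fold and 2.76% were past 2-fold and higher. All 6 neutrophil markers compared were higher in KO in sign. Dendritic cell markers summed to 126 and 149 FPKM over 7 genes, with Zbtb46 called higher at 0 and 9.45 FPKM and Siglech at 1.42 and 8.31 FPKM. Xcr1 was lower at 1.65 and 0.0588 FPKM. B cell markers summed to 2.75 and 6.46 FPKM over 5 genes, with Cd79b at 0 and 5.52 FPKM and Cd79a at 2.50 and 0.222 FPKM. T cell markers with a row were at 0 in both but for Cd4, at 5.35 and 2.07 FPKM. Mast cell and eosinophil markers were too but for Ccr3, at 0 and 7.45 FPKM. The part of all these markers in the values of the members was not tested.

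**Figure D4:**
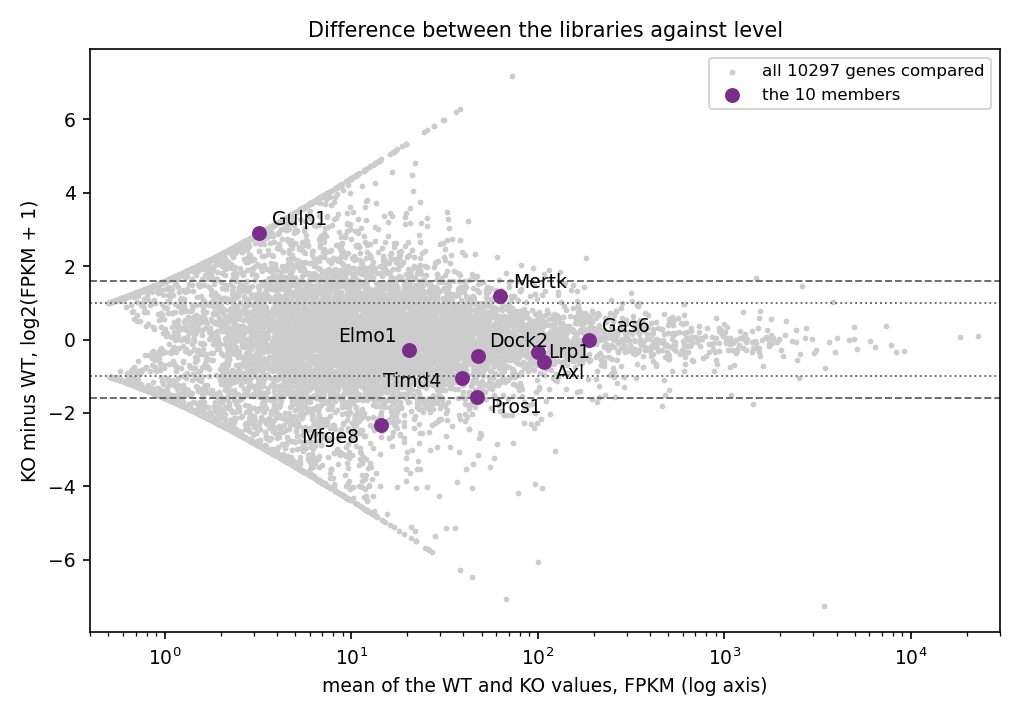
Difference between the libraries, KO minus WT on the log2(FPKM + 1) scale, against the mean FPKM of both (log axis), for all 10297 genes compared (grey) and the 10 members (purple); dashed lines mark 3-fold and dotted lines 2-fold. Gulp1 lies on the edge formed by genes listed at 0 in WT, Mfge8 lies past the lower dashed line and Pros1 just inside it.

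The promoters of 4 members are shown, chosen after their values and matches were seen: Mertk and Axl as the TAM receptors, Mfge8 as the called member listed above 0 in both libraries, and Timd4 as the member with a match to AGGTCA. HIF-1 binds a core of ACGTG or GCGTG, and nuclear receptors such as PPAR-RXR and LXR-RXR bind repeats of AGGTCA. Promoters were taken from RefSeq (GRCm38.p6), 250 bases before to 50 bases after each annotated start, and searched for these letters on both strands. All 10 members matched, with 11 promoters, since Elmo1 has a pair of starts. ACGTG was in 0 of the 11, against 19.6% of all 32851 promoters, and GCGTG was in 3 (Mertk, Mfge8 and 1 of Elmo1), against 32.4%. AGGTCA was in 1 (Timd4), against 16.3%. The promoters follow 5′ to 3′ in the direction of the gene, with matched letters in capitals (CACGC is GCGTG read on the other strand).
Mertk (chr2:128698665-128698964, plus strand): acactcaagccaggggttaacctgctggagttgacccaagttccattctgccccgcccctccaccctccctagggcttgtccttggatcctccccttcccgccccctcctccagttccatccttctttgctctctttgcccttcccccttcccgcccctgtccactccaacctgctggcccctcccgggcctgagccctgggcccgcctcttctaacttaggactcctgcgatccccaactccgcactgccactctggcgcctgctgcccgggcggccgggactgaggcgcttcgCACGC
Axl (chr7:25788684-25788983, minus strand): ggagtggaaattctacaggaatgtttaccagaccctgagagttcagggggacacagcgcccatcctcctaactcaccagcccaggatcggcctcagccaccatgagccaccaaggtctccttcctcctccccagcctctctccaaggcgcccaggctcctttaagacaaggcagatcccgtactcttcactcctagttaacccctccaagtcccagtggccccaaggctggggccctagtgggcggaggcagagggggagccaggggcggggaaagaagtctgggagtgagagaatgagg
Mfge8 (chr7:79149011-79149310, minus strand): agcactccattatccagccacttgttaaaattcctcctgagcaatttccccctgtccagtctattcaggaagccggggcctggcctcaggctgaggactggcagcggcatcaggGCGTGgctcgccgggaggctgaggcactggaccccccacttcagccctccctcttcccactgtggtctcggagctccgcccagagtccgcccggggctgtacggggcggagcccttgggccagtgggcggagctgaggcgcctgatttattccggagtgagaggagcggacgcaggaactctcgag
Timd4 (chr11:46810549-46810848, plus strand): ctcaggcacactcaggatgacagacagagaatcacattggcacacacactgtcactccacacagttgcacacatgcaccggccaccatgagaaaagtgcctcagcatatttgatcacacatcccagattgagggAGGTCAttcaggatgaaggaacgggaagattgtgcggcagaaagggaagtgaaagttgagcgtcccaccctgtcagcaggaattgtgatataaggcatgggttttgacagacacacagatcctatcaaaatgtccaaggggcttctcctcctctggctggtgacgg

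The match in Mertk began 45 bases after the start, that in Mfge8 began 136 bases before it, and that in Timd4 began 116 bases before it. Axl, Pros1 and Gas6 hold neither core in this window. The G and C content of the members' promoters ran from 46.0% to 67.7%, against a median of 52.7% over all promoters.

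The other genes of the pathway were taken from a list of 69, of which 68 had a row and 62 could be compared. Of these 3 were called higher and 9 lower in KO, which is 19.4%, against 27.3% of all genes compared, and their median difference was -0.19. These shares are not matched for level, and the share called fell with the level, so no reading is drawn from the gap. Of the 12 called, 5 were under 1 FPKM in 1 of the libraries.

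Among direct receptors for phosphatidylserine, the highest were Cd300ld at 213 FPKM in the WT library against 199 in the KO library, Trem2, the receptor of lipid-associated macrophages, at 228 and 155 FPKM, and Stab1, which encodes stabilin-1, at 174 and 205 FPKM. None of these was past 2-fold, and all were above Timd4, with Stab1 at 3.27 times Timd4 in WT and at 8.14 times Timd4 in KO. Cd300lf was called higher, at 5.83 and 24.3 FPKM in the WT and KO libraries, while its activating relative Cd300lb was at 47.4 and 21.3 FPKM, past 2-fold only. Stab2 was called lower, at 4.19 FPKM (WT) and 0.362 FPKM (KO). Adgrb1 and Ager were listed at 0 in both.

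Of 6 scavenger receptors and co-receptors compared, only Olr1 was past 2-fold, and the highest were Cd14 at 1060.4 FPKM in the WT library against 1095 in the KO library and Cd36 at 288 and 418 FPKM. Olr1 was called lower, at 9.002 and 0.483 FPKM. Among further bridging proteins, Thbs1, which encodes thrombospondin-1, was called lower, at 37.8 and 11.0 FPKM in the WT and KO libraries, and Tulp1, with 0 in WT and 2.77 FPKM in KO, was called higher. Anxa1 was at 144 and 52.8 FPKM, a difference of -1.43, and Lgals3, which encodes galectin-3, was at 1135 and 619.8 FPKM, a difference of -0.87. Of the 8 further bridging genes, 1 was called higher and 1 lower, which is 25%, against 27.3% of all genes compared.

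Of 12 genes of engulfment signalling around ELMO and DOCK, 2 were called lower and 0 higher, which is 16.7%, against 27.3% of all genes compared. At 2-fold 33.3% were past, against 45.6% of all genes, with 3 lower and 1 higher. The latter was Trio, an exchange factor for RHOG and RAC, at 6.01 and 18.4 FPKM, a difference of 1.47, which is 3.06-fold on the plain ratio. Rac1 was at 189 FPKM (WT) and 187 FPKM (KO), Cdc42 at 338 and 276 FPKM, and Rhog, the GTPase that recruits ELMO to the membrane, at 278 and 199 FPKM. Arhgap25, which switches RAC off, was called lower at 28.8 and 7.62 FPKM, as was Bcar1, with 2.14 FPKM in WT and 0 in KO. Of the 8 phagosome maturation genes compared, 0 were called and 3 (37.5%) were past 2-fold, against 27.3% and 45.6% of all genes. Dnase2a, which encodes a lysosomal DNase, was at 35.2 and 92.1 FPKM, while the autophagy genes Becn1 and Atg5 were at 16.3 and 15.3 FPKM in WT and at 6.15 and 6.45 FPKM in KO. Rab7, which directs phagosomes to lysosomes, was at 235 and 451 FPKM, a difference of 0.94, and Lamp1 and Lamp2 were at 648 and 332 FPKM in WT and at 645 and 369 FPKM in KO.

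Nuclear receptors link engulfment to gene expression, since lipid from swallowed cells activates LXR and PPAR, and LXR is known to induce Mertk. Pparg, which encodes PPARγ, was called lower, at 36.4 FPKM in the WT library against 7.78 in the KO library, a difference of -2.09. It lay in the band of 20 to 50 FPKM, where 11.7% of genes were past 3-fold. Nr1h3, which encodes LXRα, was called lower too, at 12.9 and 2.97 FPKM, a difference of -1.81, in the band of 5 to 10 FPKM where 32.4% of genes were past 3-fold. Nr1h2, which encodes LXRβ, was at 47.3 and 37.5 FPKM, and the LXR targets Abca1 and Abcg1, cholesterol exporters, were at 104 and 46.5 FPKM in WT and at 77.7 and 20.7 FPKM in KO, of which Abcg1 was past 2-fold. Of the 9 genes of this group, 2 were called lower and 0 higher, which is 22.2%, against 27.3% of all genes compared. In sign 7 were lower and 2 higher. The latter were Ppard at 15.4 and 30.0 FPKM and Rxrb at 7.29 and 14.6 FPKM, each with a difference of 0.92.

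**Figure D5:**
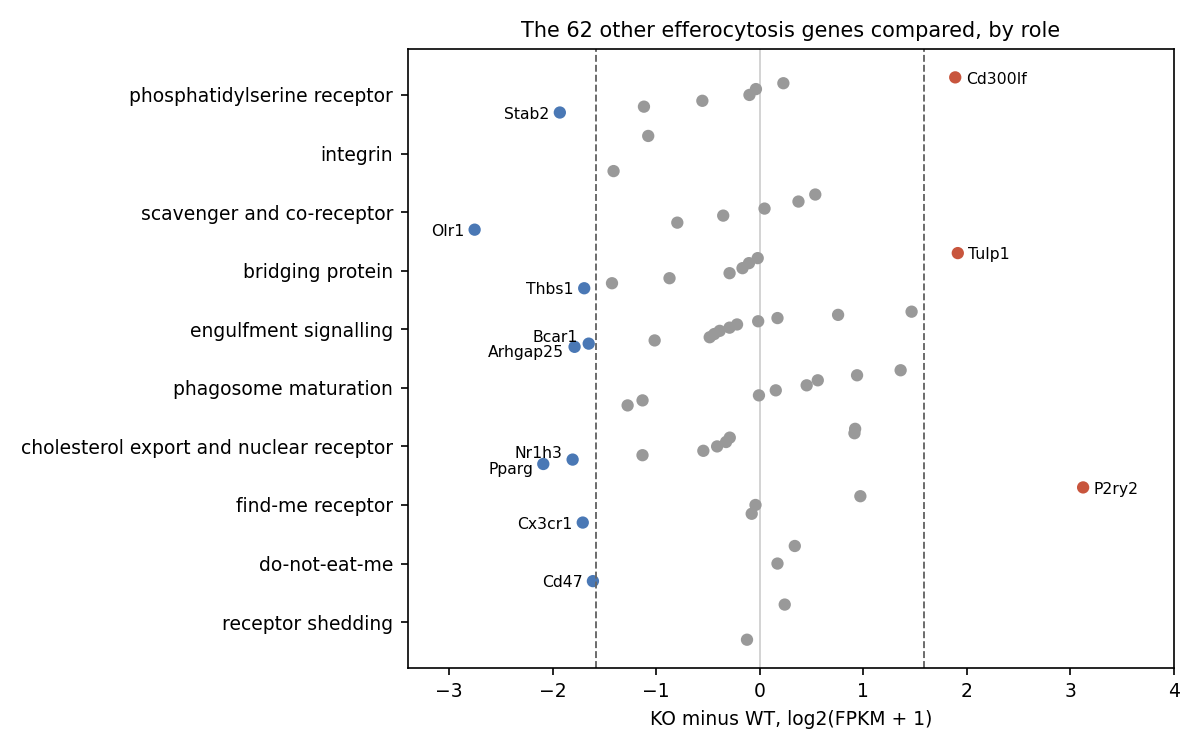
Difference between the libraries, KO minus WT on the log2(FPKM + 1) scale, of the 62 other pathway genes compared, in rows by role; dashed lines mark 3-fold, red points are called higher and blue points called lower, with their names. The 3 genes called higher are Cd300lf, Tulp1 and P2ry2, and 9 genes are called lower.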

How the data were processed

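RNA of sorted ATM was measured in 2 libraries, 1 WT and 1 KO. The authors deposited 1 table of genes with a column of FPKM for each library. The submitters' processing notes name CASAVA 1.8.2, TopHat2 2.0.9, Cufflinks 2.2.1 and the build mm9; the annotation and filters are not given in the sources used here. FPKM values are already divided by length and library size, so no count model was used. Of 20749 rows, 401 full repeats were dropped and 18 further rows of an identifier already present were summed, leaving 20330 identifiers, of which 98.5% had a symbol. Coordinates and lengths come from GENCODE M21 (GRCm38), not from the authors' build.

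Differences were log2(FPKM + 1), KO minus WT, for genes that reached 1 FPKM in either library, called at 3-fold. The study's supplement also gives 3-fold for its gene lists but states no log scale or pseudocount, so only the number is shared. FPKM times length in kilobases had a smallest recurring step of 0.171 in WT (18 genes within 10%) and 0.134 in KO (20 genes), taken as 1 fragment. Fragments of a gene used its median coding length, which is short for Lrp1, Elmo1 and Dock2. Shares by band of mean FPKM serve as background. The members, lists and rules were chosen with earlier results of these data known. Named by rule were all members, the families of Mertk, Mfge8, Timd4, Elmo1 and Dock2, and, of relatives and pathway genes, those past 3-fold with at least 1 FPKM in each library, the 3 largest differences in each direction among the rest, and those at a mean of at least 100 FPKM. Other genes were named after their values were seen. Some relatives of the members are not reported here. Python 3.11.15 with pandas 2.3.3 was used, and the calling was tested on simulated data. The alternatives were other pseudocounts, filters, thresholds and scalings.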

Additional observations from a re-analysis of the deposited data

How the results depend on the processing

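No paired analysis was possible because neither genotype was sequenced more than once, and for the same reason no library could be left out. A change counted as moved when it exceeded 1.5-fold. Pros1 joined Mfge8 as lower, giving 2 lower members, with a pseudocount of 0.1 or 0.01, with the median of all genes subtracted, and on the plain FPKM ratio, a setting chosen after seeing the data under which 37.1% of all genes passed. Of all 10297 genes compared, 3752 and 3808 were called with pseudocounts of 0.1 and 0.01, against 2815 as reported. With the median subtracted, 2822 were called. Filters that drop Gulp1 left 0 members higher, whether 1 FPKM was required of each library or a mean of at least 5. The former also left 1 other pathway gene higher and 429 and 447 of all genes higher and lower, and the latter 598 and 646, because fewer genes were compared. At 2-fold the counts higher and lower were 2 and 3 members, 5 and 17 other pathway genes, and 2380 and 2314 of all genes. The difference of Gas6 was 0.02, in place of -0.02, with both libraries scaled to the same summed FPKM (0.0242 to 3 digits). For the other 8 members listed above 0 in both libraries the sign held in every setting, with Mertk between 1.16 and 1.23, Axl between -0.64 and -0.57, Timd4 between -1.09 and -1.01, Pros1 between -1.60 and -1.52 and Mfge8 between -2.57 and -2.28. The difference of Gulp1, listed at 0 in WT, moved from 2.90 as reported to 6.03 and 9.33 with pseudocounts of 0.1 and 0.01, so its size was set by the pseudocount. Depth limits the low values most: 3 fragments of Gulp1 correspond to 0.244 FPKM in WT.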

Other observations

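Dying cells also release soluble signals that draw macrophages, while living cells display signals that hold them off, and genes of both kinds were compared. Of 5 receptors for such attracting signals, P2ry2, a receptor for extracellular ATP and UTP, was called higher at 0.502 FPKM (WT) and 12.1 FPKM (KO). Cx3cr1, the fractalkine receptor, was called lower at 12.1 FPKM in the WT library against 2.99 in the KO library. P2ry2 and Cx3cr1 lay in the band of 5 to 10 FPKM, where 32.4% of genes were past 3-fold. P2ry6 was at 125 and 118 FPKM, Gpr132 at 76.4 and 74.2 FPKM and S1pr1, a receptor for sphingosine-1-phosphate, at 17.2 and 34.8 FPKM. Cd47, the signal that living cells show against being eaten, was called lower at 62.0 and 19.6 FPKM in the WT and KO libraries, a difference of -1.61, in the band where 11.7% of genes were past 3-fold. Pirb, an inhibitory receptor, was at 109.9 and 124 FPKM, and Sirpa was not analysed here.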
